A study of Homo sapiens with 6 samples.

Results

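The genes described here are the replication-dependent histone genes, the clustered genes that supply most of the histone protein made during S phase. They were taken as every protein-coding row of the gene count table whose name starts with HIST and a digit, which gave 71 of 58735 genes: 6 H1, 17 H2A, 18 H2B, 15 H3 and 15 H4 genes. RNA-seq counts came from RPE-1, a human retinal pigment epithelial cell line, here carrying GFP-tagged CETN2 to mark centrioles and a PLK4 gene under an rtTA, doxycycline-inducible promoter. The siSON group (3 libraries) received an siRNA against SON, a nuclear speckle protein that helps splice weak introns, and the siControl group (3 libraries) a scramble siRNA. PLK4 was induced with 1 µg/mL doxycycline in both groups, so all values describe cells with PLK4 induced. Nothing in the labels says that the 3 libraries of a group came from separate cultures, so p-values measure the spread between these libraries, which may be technical.

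H2A and H2B pair as dimers and H3 and H4 as a tetramer to form the nucleosome core, and H1 binds the linker DNA between cores. Most mRNAs of the clustered genes have no introns and no poly(A) tail: they end just after a short stem-loop, which is bound by SLBP and cut by a machinery that contains the U7 small nuclear RNP. Some of the same genes also give polyadenylated mRNAs from longer transcripts, for instance in cells that leave the cycle. The labels name an mRNA library kit and do not describe how mRNA was selected, so the counts cannot tell stem-loop ended from polyadenylated transcripts.

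The stem-loop is the feature that defines this family, so its forms are shown first. A search for the 16-base stem-loop consensus after the stop codon of GENCODE 29 transcripts found it in 31 of the 38 members whose annotated model includes UTR sequence. It was also found in 3 of 19368 other protein-coding genes (0.0155%). These were H2AFX, a histone gene outside the clusters, SYNCRIP, and AL031777.3, which overlaps HIST1H3D and HIST1H2AD on their own strand. The 31 matches took 5 forms. Each is written 5′ to 3′ as DNA, with the 4-base loop in capitals and the stem in lower case, and is named after some of the tested genes that hold it.
HIST1H2BE, HIST1H2AC, HIST2H2BE and 14 others: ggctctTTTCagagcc
HIST1H4E, HIST1H4H and 3 others: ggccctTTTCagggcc
HIST1H2BC, HIST1H2BD and 3 others: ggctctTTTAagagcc
HIST1H4I and 2 others: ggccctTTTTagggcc
HIST1H2AG: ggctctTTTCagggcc
The match began 22 to 67 bases after the stop codon (median 36). In 22 of the 31 genes at least 1 annotated transcript ran more than 100 bases past it, as in HIST1H2AG, where 1761 bases followed. Among tested genes with a match, those of H2A, H2B and H3 had ggctct as the first arm of the stem, and the 3 H4 genes had ggccct.

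Promoters of the family are shown next, because neighbouring H2A and H2B genes often start back to back and share a promoter. RefSeq promoters (GRCh38.p14) were matched for 61 of the 71 genes. In the 250 bases before the start, and on both strands, the octamer ATTTGCAT was found in 11 of 14 H2A genes, 14 of 18 H2B genes, 1 of 10 H3 genes and no H1 or H4 gene, against 2.03% of 27305 genes in the table. Where back-to-back genes share these bases, as HIST1H2BJ and HIST1H2AG do, 1 octamer was counted for both, so these are not counts of separate promoters. CCAAT was found in all H1, H2A, H2B and H3 promoters matched and in 3 of 13 H4 promoters, against 37% of the table. TATAAA was found in 41 of 61 histone promoters, against 13%. Below, both intervals lie on the plus strand of chromosome 6 between the RefSeq starts of a minus-strand H2B gene (left) and a plus-strand H2A gene (right); capitals mark these 3 motifs on either strand.
HIST1H2BJ and HIST1H2AG, chr6:27132796-27133042: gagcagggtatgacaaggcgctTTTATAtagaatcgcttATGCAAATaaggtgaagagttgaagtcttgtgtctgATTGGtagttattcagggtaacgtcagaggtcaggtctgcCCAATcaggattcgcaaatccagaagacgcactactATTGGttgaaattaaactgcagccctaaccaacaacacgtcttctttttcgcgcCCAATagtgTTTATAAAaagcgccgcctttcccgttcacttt
HIST1H2BC and HIST1H2AC, chr6:26123927-26124171: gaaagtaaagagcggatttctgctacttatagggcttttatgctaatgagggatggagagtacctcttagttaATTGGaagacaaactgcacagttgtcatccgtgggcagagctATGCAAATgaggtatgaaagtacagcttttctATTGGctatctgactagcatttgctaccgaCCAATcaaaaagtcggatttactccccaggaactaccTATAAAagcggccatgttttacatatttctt
The first interval holds 1 octamer, 4 CCAAT and 3 TATAAA matches, of which 2 TATAAA matches overlap each other. The second holds 1 octamer, 3 CCAAT and 1 TATAAA match. All 4 genes of these pairs were lower in siSON, as described below. That did not hold for all neighbours: HIST1H2AK and HIST1H2BN, which lie on opposite strands, were not lower. Any link between a shared promoter and a fall was not tested.

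Library totals were 58917762 to 69764836 counts in siControl and 54572365 to 62723275 in siSON, so 3 counts, the limit that a count of 0 allows, corresponded to 0.0401 to 0.0590 CPM (counts scaled to a common library total after TMM normalization, which sets the bulk of genes to no change). That limit covers counting error only. Replicate pairs that included replicate 1 differed more (chi-square per degree of freedom 16.6 to 23.6) than replicates 2 and 3 of either group (6.68 each). SON itself had 297 ± 14.5 CPM in siControl and 67.6 ± 2.49 CPM in siSON (SD, n = 3 each; log2 fold change -2.14, standard error, SE, 0.06, edgeR adjusted p 6.78e-10). Of 8 markers of pigment epithelium, which summed to 51.1 to 52.9 CPM in siControl and 74.0 to 83.3 CPM in siSON, MITF, OTX2 and BEST1 were higher, PMEL was lower, TYR was at 0 in every library, and RPE65, RLBP1 and TYRP1 had at most 18 counts. Of 9 markers of other cell types, CD3E, RBFOX3 and HBB were at 0 in every library and 4 were tested. PTPRC, LYZ and PECAM1 were lower in siSON (log2 fold changes -2.29, -2.28 and -1.11) and SNAP25 was higher, from 5.05 to 9.10 CPM, so the list summed to 7.94 to 8.87 CPM in siControl and 9.40 to 10.5 CPM in siSON. LYZ passed the count filter through siControl alone and had to differ between groups. The PECAM1 call was lost under cyclic loess normalization and without siSON replicate 2 or 3. The part of these markers in the histone values was not tested. Gene positions below are from GENCODE 29 on GRCh38.

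Most of the family was barely detected. Of the 71 genes, 24 had 0 counts in all 6 libraries, 26 had counts but stayed under the count filter, with at most 18 counts in a library, and 21 were tested. The 26 genes under the filter summed to 53, 78 and 122 counts in siControl and 61, 68 and 77 in siSON, which overlap. Together the 71 genes had 5807, 6073 and 7412 counts in siControl and 3750, 3089 and 3234 in siSON. Every siSON library lay below every siControl library. On the CPM scale the sum was 92.6 ± 8.36 in siControl and 62.7 ± 2.49 in siSON (SD, n = 3 each), which is 67.7% of the control level. Each library's sum was made mostly by few genes, 5 of which (HIST1H2BK, HIST1H1C, HIST1H3E, HIST1H2BJ and HIST2H2BE) gave 65.8% to 73.9% of histone counts.

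Genes at 0 were found with both kinds of annotated model. Of 33 genes annotated as coding sequence alone, 15 were at 0 and 5 were tested. Of 38 genes annotated with UTR sequence, 9 were at 0 and 16 were tested. Of the 8 genes whose coding sequence is identical to that of another member (HIST2H2AA3 and HIST2H2AA4, HIST2H3A and HIST2H3C, HIST2H4A and HIST2H4B, HIST1H4J and HIST1H4K), 5 were at 0 in every library and none was tested. How the counting handled reads with several matches in the genome is not given in the sources used here, so a 0 for such a gene is not a measure of its transcription. Among the genes tested, the closest other member of equal coding length was 86.9% to 93.9% identical.

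Summed over its genes, each class was at a lower level in siSON, and H2A was furthest below control. The H2A sum was 15.7 ± 1.21 CPM in siControl and 8.25 ± 0.532 CPM in siSON (SD, n = 3 each), or 52.5% of control. The H1 sum was at 65.1% of control, H2B at 71.2%, H3 at 73.1% and H4 at 72.8%. In no class did the 3 siSON sums overlap the 3 siControl sums, although in H4 the gap was narrow, with 1.91 CPM in the lowest siControl library and 1.89 CPM in the highest siSON library. These sums were not tested, and in bulk samples fewer cells that make an mRNA and less of it per cell cannot be told apart.

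**Figure D1:**
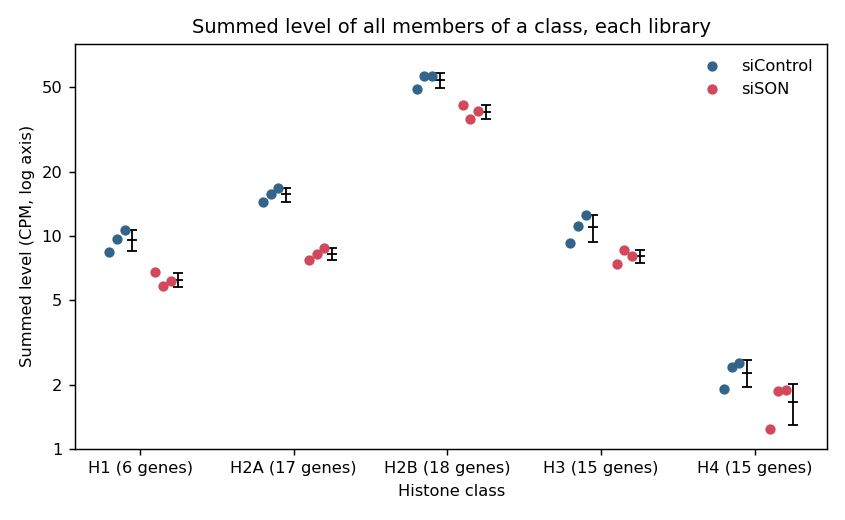
Summed level in CPM (log axis) of all genes of each histone class. Points are single libraries of siControl and siSON, and black bars are the mean and SD over 3 libraries. The H2A sum lay between 14.5 and 16.9 CPM in siControl and between 7.75 and 8.81 CPM in siSON.

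Gene by gene, 14 of the 21 genes tested were lower in siSON, 1 was higher and 6 were not called in edgeR's quasi-likelihood test. Of all 16591 genes tested, 71.7% were called in either direction, 36.5% as lower and 35.2% as higher. Among the 10123 other genes within the mean level of the histone genes tested (0.142 to 28.3 CPM), 64.5% were called, 41.9% as lower and 22.6% as higher. The median log2 fold change was -0.87 for the 21 histone genes, -0.27 for those genes of like level and -0.03 for all genes tested. Scaling by library size alone gave 16 lower and 0 higher histone genes (median -1.06), with the median of all genes shifted by -0.20. Cyclic loess normalization gave 10 lower and 2 higher (median -0.48), with 3246 of the 10123 genes of like level lower. Without replicate 1 of both groups, an alternative added after the data were seen, 14 of 22 genes were lower and 1 was higher, and 12 of the 14 lower genes were shared. The 1 higher gene there was HIST1H4K in place of HIST1H2AK, and HIST1H4K passed the count filter there through siSON alone.

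A gene that passes the filter through 1 group alone has to differ between groups, so deeper genes were also counted. With at least 10 counts in all 6 libraries, 12 of 15 histone genes were lower (80%) and 1 was higher, with a median of -0.87. Of all 14211 genes at that depth, 34.7% were lower, with a median of 0.05. They were not matched by level and include genes far above the histone genes. The groups did not overlap for 16 of the 21 histone genes, against 75.1% of all genes tested.

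**Figure D2:**
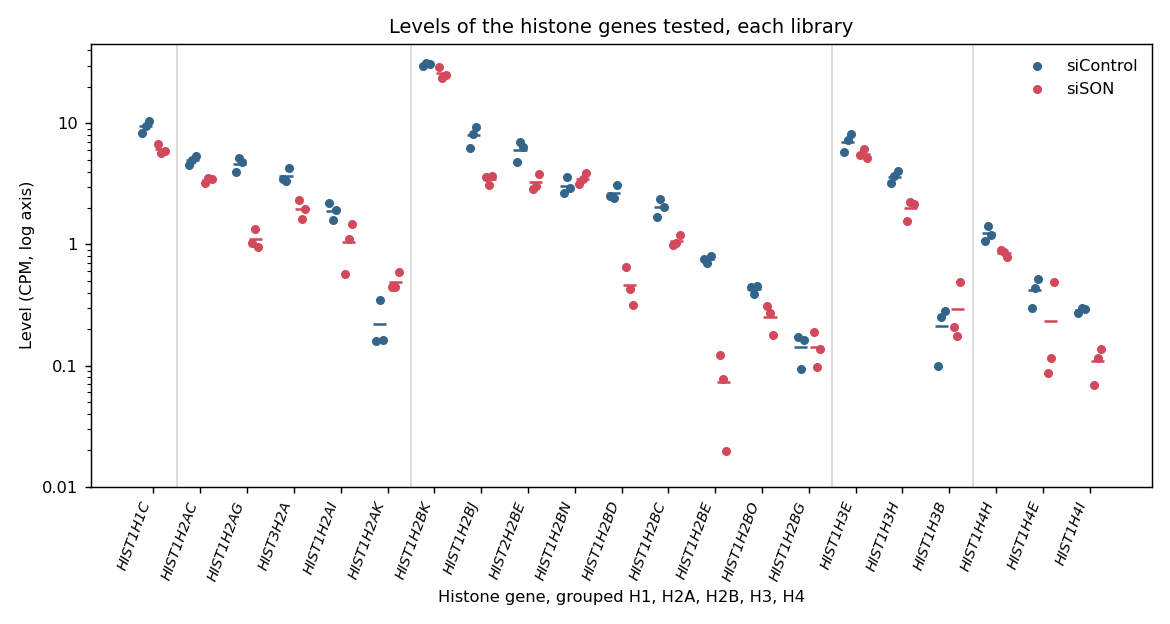
Level in CPM (log axis) of the 21 histone genes tested, grouped by class and ordered by siControl mean. Points are single libraries and short lines are group means over 3 libraries. HIST1H2BK, near 30 CPM, stands above the rest, and HIST1H2AG, HIST1H2BD and HIST1H2BE show the widest gaps between groups.

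Among H1 genes, HIST1H1C was the only member tested. It encodes the somatic linker histone H1.2 (chromosome 6, 26055787 to 26056428, minus strand, 1 exon, annotated as coding sequence alone). In replicates 1 to 3 its level was 8.38, 9.50 and 10.5 CPM in siControl and 6.73, 5.64 and 5.92 CPM in siSON. The highest siSON library was below the lowest siControl library. HIST1H1C fell by 0.63 on the log2 scale (SE 0.12, edgeR adjusted p 0.000582). Other H1 members with counts were at the floor: HIST1H1E, the H1.4 gene, had 0, 4 and 8 counts in siControl and 3, 9 and 7 in siSON, and HIST1H1B, the H1.5 gene, had 5, 5 and 0 against 0, 0 and 3. HIST1H1T, the testis linker histone, had 2 counts in 1 library, and HIST1H1A and HIST1H1D had none.

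H2A genes divided into 4 that fell and 1 that rose. HIST1H2AG (chromosome 6, 27133042 to 27135291, 1 exon on the plus strand) encodes a core histone H2A and had the largest fall of its class. Its level was 3.98, 5.14 and 4.79 CPM in siControl and 1.02, 1.34 and 0.944 CPM in siSON, or 23.7% of control. The groups were far apart, and the gene fell by 2.08 on the log2 scale (SE 0.18, adjusted p 1.39e-06). HIST1H2AC, the most counted H2A gene (chromosome 6, 26124145 to 26139116, 2 exons on the plus strand), had 4.50, 4.98 and 5.34 CPM in siControl and 3.20, 3.53 and 3.46 CPM in siSON. It fell by 0.54 on the log2 scale (SE 0.13, adjusted p 0.00266), and the call was lost under cyclic loess (-0.20, adjusted p 0.194).

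HIST3H2A lies outside the main cluster (chromosome 1, 228456979 to 228457873, minus strand, 1 exon). It had 3.48, 3.36 and 4.27 CPM in siControl and 2.33, 1.61 and 1.97 CPM in siSON (log2 fold change -0.91, SE 0.18, adjusted p 0.000716). All siSON libraries were below all siControl libraries. HIST1H2AI (chromosome 6, 27808199 to 27808701, 1 exon on the plus strand) had 2.19, 1.59 and 1.93 CPM in siControl and 0.568, 1.10 and 1.47 CPM in siSON (log2 fold change -0.87, SE 0.30, adjusted p 0.0213). Replicate 1 was the lowest siSON library: without it the value was -0.55 (adjusted p 0.0556), and the call was also lost without siControl replicate 1 (-0.78, adjusted p 0.0578), without replicate 1 of both groups (-0.47, adjusted p 0.1) and under cyclic loess (-0.53, adjusted p 0.154).

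HIST1H2AK was the only histone gene called higher. It had 11, 22 and 12 counts in siControl and 26, 23 and 30 in siSON, or 0.221 ± 0.108 and 0.494 ± 0.0826 CPM (SD, n = 3 each). The groups did not overlap, and HIST1H2AK rose by 1.17 on the log2 scale (SE 0.41, adjusted p 0.0235). The call was lost with library size alone (0.97, adjusted p 0.0528), without siControl replicate 1 or 3 (0.95 and 0.97), without siSON replicate 3 (1.03) and without replicate 1 of both groups (1.02). HIST1H2AK (chromosome 6, 27837947 to 27838339, minus strand) lies inside the span of HIST1H2BN on the opposite strand, and the strand setting of the counting is not given in the sources used here, so reads from these genes cannot be told apart.

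H2B genes carried most histone counts and showed the widest range. HIST1H2BK (chromosome 6, 27146418 to 27146798, minus strand, annotated as coding sequence alone) was the most counted histone gene in every library. It had 29.6, 31.3 and 30.8 CPM in siControl and 29.1, 23.7 and 25.2 CPM in siSON. The siSON libraries were lower by a small margin: HIST1H2BK fell by 0.23 on the log2 scale (SE 0.08, adjusted p 0.0264). The call was lost without siControl replicate 2 or 3 (-0.24 each, adjusted p 0.0645 and 0.0612) and without siSON replicate 2 or 3 (-0.16 and -0.20, adjusted p 0.139 and 0.0918). Its share of all histone counts was 31.1% to 35.6% in siControl and 39.6% to 45.0% in siSON.

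HIST1H2BJ (chromosome 6, 27125897 to 27132750, minus strand, 2 exons) starts back to back with HIST1H2AG, in the first interval printed above. It had 6.26, 8.22 and 9.39 CPM in siControl and 3.60, 3.08 and 3.66 CPM in siSON, or 43.3% of control (log2 fold change -1.21, SE 0.16, adjusted p 3.75e-05). Both genes of that pair fell, with no overlap between groups. HIST1H2BC, the partner of HIST1H2AC in the second interval (chromosome 6, 26114873 to 26123926, minus strand, 2 exons), had 1.70, 2.39 and 2.02 CPM in siControl and 0.982, 1.03 and 1.20 CPM in siSON. HIST1H2BC fell by 0.93 on the log2 scale (SE 0.20, adjusted p 0.00161). HIST2H2BE (chromosome 1, 149884459 to 149886652, minus strand, 1 exon) is a member of the HIST2 cluster annotated with 1729 bases after its stem-loop. It had 4.8, 6.96 and 6.34 CPM in siControl and 2.86, 3.06 and 3.83 CPM in siSON (log2 fold change -0.89, SE 0.17, adjusted p 0.000612).

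HIST1H2BE and HIST1H2BD, H2B genes with annotated introns, had the lowest fitted fold changes among the genes tested. HIST1H2BE (chromosome 6, 26172059 to 26184655, 4 exons on the plus strand) had 53, 45 and 60 counts in siControl and 7, 4 and 1 in siSON. That is 0.756 ± 0.0477 and 0.0726 ± 0.0506 CPM (SD, n = 3 each), 9.59% of control. HIST1H2BE fell by 3.31 on the log2 scale (SE 0.46, adjusted p 5.52e-05), and its value was -2.41 under cyclic loess, -2.88 without siSON replicate 3 and -3.89 without siSON replicate 1. All 3 siSON counts were below 10, so this gene passed the count filter through siControl alone and had to differ between groups. HIST1H2BD (chromosome 6, 26158146 to 26171349, 2 exons on the plus strand) had 2.49, 2.41 and 3.09 CPM in siControl and 0.654, 0.426 and 0.315 CPM in siSON, 17.5% of control. For HIST1H2BD the log2 fold change came to -2.5 (SE 0.26, adjusted p 5.37e-06). Both genes overlap AL353759.1 on the opposite strand, and HIST1H2BD also overlaps LARP1P1 on its own strand.

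HIST1H2BN, which also has introns (chromosome 6, 27837760 to 27865798, plus strand, 3 exons), did not follow them. It had 2.66, 3.60 and 2.93 CPM in siControl and 3.13, 3.45 and 3.87 CPM in siSON, and the groups overlapped. HIST1H2BN differed by 0.19 on the log2 scale (SE 0.16, adjusted p 0.314), and of the alternatives cyclic loess alone called it higher (0.54, adjusted p 0.011). With library size alone it was -0.01. HIST1H2BN overlaps HIST1H2AL on its own strand and HIST1H2AK on the other. HIST1H2BO and HIST1H2BG, named after their values were seen, were not called: their log2 fold changes were -0.76 (SE 0.36, adjusted p 0.0775) and -0.01 (SE 0.50, adjusted p 0.99), from at most 34 and 12 counts in a library. HIST1H2BO was lower with library size alone (-0.95, adjusted p 0.0306).

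H3 genes were mixed. HIST1H3H (chromosome 6, 27810064 to 27811300, plus strand, 1 exon) encodes the replication-dependent H3.1 and had 3.22, 3.65 and 4.01 CPM in siControl and 1.57, 2.23 and 2.16 CPM in siSON. The groups did not overlap, and HIST1H3H fell by 0.87 on the log2 scale (SE 0.18, adjusted p 0.000913). HIST1H3E, the most counted H3 gene (chromosome 6, 26224199 to 26227473, 2 exons on the plus strand), had 5.84, 7.22 and 8.17 CPM in siControl and 5.51, 6.16 and 5.19 CPM in siSON. Its groups overlapped, and at -0.33 (SE 0.14, adjusted p 0.0507) it lay just outside the threshold. It was called lower in 7 of 15 alternatives, among them library size alone (-0.53, adjusted p 0.00673) and the fit without siControl replicate 1 (-0.48, adjusted p 0.0074), and was at -0.03 under cyclic loess. HIST1H3B had 7, 16 and 21 counts in siControl and 12, 9 and 25 in siSON and was not called (log2 fold change 0.45, SE 0.53, adjusted p 0.469). HIST1H3C, under the filter, had 6, 4 and 0 counts against 4, 1 and 12. The other H3 genes included 9 at 0 in every library.

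H4 genes gave the fewest counts, 133 to 189 in siControl and 72 to 96 in siSON over all 15 genes. HIST1H4H (chromosome 6, 26277609 to 26285638, minus strand, 3 exons) had 1.07, 1.43 and 1.20 CPM in siControl and 0.896, 0.872 and 0.787 CPM in siSON. The groups did not overlap, and the log2 fold change of -0.53 (SE 0.22, adjusted p 0.0499) was at the edge of the threshold: it was kept in 4 of 15 alternatives and was -0.09 (adjusted p 0.718) under cyclic loess. HIST1H4I (chromosome 6, 27138588 to 27139881, plus strand, 1 exon) fell from 19, 19 and 22 counts to 4, 6 and 7 (log2 fold change -1.42, SE 0.44, adjusted p 0.0137). It too passed the count filter through siControl alone. The call was lost under cyclic loess (-0.58, adjusted p 0.201), without siSON replicate 1 (-1.16, adjusted p 0.0723) and without replicate 1 of both groups (-1.23, adjusted p 0.0687).

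HIST1H4E (chromosome 6, 26204552 to 26206038, 1 exon on the plus strand) had 21, 28 and 39 counts in siControl and 5, 6 and 25 in siSON. The siSON libraries disagreed with each other, and the gene was not called (log2 fold change -0.88, SE 0.57, adjusted p 0.186). Without siSON replicate 3, the library with 25 counts, its value was -2.03 (adjusted p 0.00623). In that fit HIST1H4E passed the count filter through siControl alone and had to differ between groups. Of the H4 genes under the filter, HIST1H4C had 2, 4 and 9 counts in siControl and 3, 14 and 7 in siSON. HIST1H4K, named after its values were seen, had 0, 0 and 5 against 4, 11 and 11, and shares its whole coding sequence with HIST1H4J. It was called higher in 4 alternatives: with no filter, without siControl replicate 3, without siSON replicate 1 and without replicate 1 of both groups. In the fits that left out libraries, HIST1H4K passed the count filter through siSON alone and had to differ between groups.

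**Figure D3:**
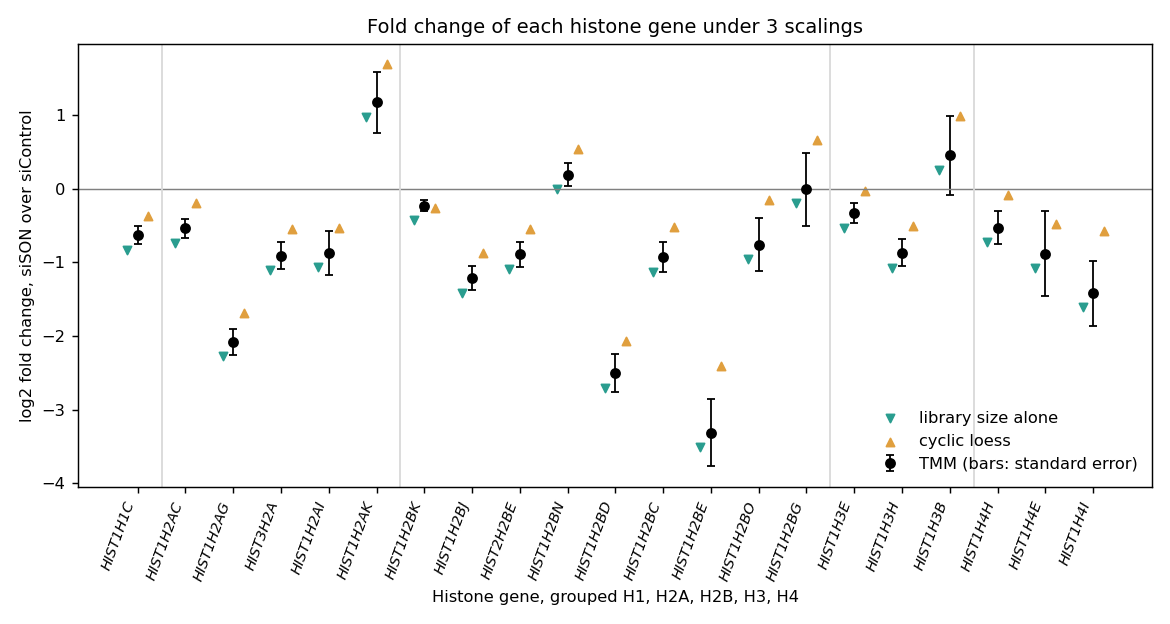
Log2 fold change, siSON over siControl, of the 21 histone genes tested, grouped by class. Black points with standard errors are from TMM scaling, and triangles show the same genes scaled by library size alone and by cyclic loess. HIST1H2BE, HIST1H2BD and HIST1H2AG were lowest under all 3 scalings, and HIST1H2AK was highest.

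Genes that fell were found with and without annotated introns. Of the 8 tested genes with 2 or more exons in an annotated transcript, 6 were lower and 2 were not called (HIST1H3E and HIST1H2BN), with a median of -0.74. Of the 13 tested genes with 1 exon, 8 were lower, 1 was higher and 4 were not called, with a median of -0.87. Among the 216 tested protein-coding genes with 1 exon that are not members, 39.8% were lower and 26.9% higher, with a median of -0.14. Of the 14 tested genes with an annotated stem-loop 11 were lower and none was higher, and of the 7 without one 3 were lower and 1 was higher. Of those 7, 5 are annotated as coding sequence alone and could not be searched, so that only HIST1H2BJ and HIST1H3E had a UTR without a match. The difference between these subsets was not tested.

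Because a ratio of genes within a library does not depend on scaling factors, each tested gene was also set against the most counted member of its class. HIST1H2BD counts were 0.0841, 0.0769 and 0.1 of HIST1H2BK counts in siControl and 0.0225, 0.0180 and 0.0125 in siSON. HIST1H2AG counts were 0.885, 1.03 and 0.897 of HIST1H2AC counts in siControl and 0.317, 0.379 and 0.273 in siSON. Of 16 such ratios, 9 were lower in siSON without overlap, 1 (HIST1H2AK) was higher without overlap and 6 overlapped. For levels of single genes, the groups did not overlap in 75.1% of all genes tested. Ratios between other genes were not computed, so these counts cannot be read as particular to the family. The references HIST1H2AC, HIST1H2BK, HIST1H3E and HIST1H4H had log2 fold changes of -0.54, -0.23, -0.33 and -0.53 themselves. A lower ratio thus shows a lower fold change than the reference, and does not show whether the family fell. A 2-sided exact permutation test with 3 libraries against 3 gives no p below 0.1, and the smallest value after Benjamini-Hochberg adjustment over the 16 was 0.16.

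Levels between genes can be compared only per length. Per kilobase of the longest annotated transcript, HIST1H2BK had 80.3 ± 2.24 CPM in siControl, HIST1H1C 14.7 ± 1.67, HIST1H2BJ 8.38 ± 1.67 and HIST3H2A 4.14 ± 0.549 (SD, n = 3 each). This order depends on the length used. Per kilobase of coding sequence, HIST1H2BK was again highest at 80.9 ± 2.26 CPM, but HIST1H2BJ at 21.1 ± 4.19 stood above HIST1H1C at 14.8 ± 1.68, and HIST3H2A was at 9.5 ± 1.26. HIST1H2BC and HIST1H2AC were at 3.09 ± 0.520 and 2.96 ± 0.253 CPM per kilobase of transcript, within their spread, but at 5.39 ± 0.907 and 12.7 ± 1.08 per kilobase of coding sequence. HIST1H2BK and HIST1H1C are annotated as coding sequence alone.

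Replication-independent histones are mostly made outside S phase as well, from polyadenylated mRNA, although H2AFX in this list also has the stem-loop. Of 10 tested, 5 were lower, 2 were higher and 3 were not called, with a median log2 fold change of -0.13. With library size alone the split was 7 lower and 0 higher, and under cyclic loess 8 lower and 0 higher. H2AFJ, an H2A variant gene, fell from 15.5 ± 0.481 to 7.72 ± 0.848 CPM (SD, n = 3 each), 49.9% of control (edgeR adjusted p 3.70e-06). H1FX, a linker variant, and H2AFV, an H2A.Z gene, fell by 0.75 and 0.63 on the log2 scale (adjusted p 3.53e-05 and 6.87e-06). H2AFY, the macroH2A1 gene, was higher at 0.20 (adjusted p 0.00247). It was at 0.00 with library size alone and was called lower under cyclic loess (-0.13, adjusted p 0.0228). H2AFX, the stem-loop bearing gene named above and given here after its values were seen, had 220 ± 11.7 CPM in siControl and 209 ± 30.5 CPM in siSON and was not called (log2 fold change -0.07, adjusted p 0.516). It was lower with library size alone (-0.27) and under cyclic loess (-0.40).

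Factors of histone gene transcription and histone mRNA 3′ end formation, translation and decay went both ways. Of 53 tested, 25 were higher, 17 were lower and 11 were not called, a split that turned to 17 higher and 24 lower when libraries were scaled by size alone and to 20 each under cyclic loess. SLBP, the stem-loop binding protein, had 67.9, 70.3 and 66.4 CPM in siControl and 44.7, 47.7 and 48.6 CPM in siSON. It fell by 0.54 on the log2 scale (SE 0.06, adjusted p 9.18e-06), and no library of 1 group reached the other. NPAT, the coactivator of clustered histone genes that cyclin E-CDK2 acts on, had 34.9, 38.6 and 37.7 CPM in siControl and 22.1, 27.4 and 25.4 CPM in siSON (log2 fold change -0.57, SE 0.09, adjusted p 0.000119). CASP8AP2, also called FLASH, works with LSM11 of the U7 particle in the cleavage step. Named after their values were seen, CASP8AP2 fell by 1.13 (adjusted p 1.13e-05) and LSM11 rose by 0.93 (adjusted p 2.07e-05) on the log2 scale. The 4 smallest adjusted p-values belonged to CDK9, the transcription elongation kinase (-1.67), WDR33, which reads the AATAAA signal in ordinary polyadenylation (1.44), CTIF, a translation factor of cap-bound mRNA (1.22), and UPF2, a decay factor (1.29), with adjusted p of at most 1.80e-08.

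Histone chaperones and assembly factors, which carry new histones to DNA, showed no common direction. Of 32 tested, 15 were higher, 12 were lower and 5 were not called; with library size alone 10 were higher and 16 lower, and under cyclic loess 9 and 17. TONSL, which reads new histone H4 on replicated DNA, had the smallest adjusted p and fell from 57.9 ± 2.05 to 17.1 ± 0.391 CPM (log2 fold change -1.76, adjusted p 3.20e-09). UBN1, a subunit of the HIRA complex, and SPTY2D1, an H3-H4 chaperone, rose by 0.89 and 1.07 (adjusted p 2.36e-07 and 3.37e-07). EP400, a remodeller that exchanges H2A.Z and H3.3, fell by 0.94 (adjusted p 3.45e-07).

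Genes of S-phase entry and DNA replication, with which histone gene transcription is coupled in cycling cells, were mostly lower. Of 43 tested, 35 were lower, 4 were higher and 4 were not called, with a median log2 fold change of -0.91, with 38 lower and 3 higher when libraries were scaled by size alone, and 36 lower and 3 higher under cyclic loess. The summed level of these genes was 5382 to 5761 CPM in siControl and 2708 to 3286 CPM in siSON. The gene with the highest level in that sum was CDKN1A, an inhibitor of cyclin-dependent kinases, with means of 2094 and 918 CPM. CDC45, a subunit of the replicative helicase, had 35.4, 33.3 and 34.2 CPM in siControl and 4.56, 5.52 and 4.09 CPM in siSON (log2 fold change -2.86, SE 0.11, adjusted p 3.37e-09). GINS4, of the same helicase, fell by 2.18 (adjusted p 1.36e-08). Of the 3 inhibitors of cyclin-dependent kinases in the list, CDKN1A fell from 2094 ± 89.1 to 918 ± 46.0 CPM (log2 fold change -1.19, adjusted p 1.01e-08), and CDKN1B rose from 106 ± 1.19 to 259 ± 7.19 CPM (log2 fold change 1.29, adjusted p 3.37e-09). CDKN2A, the third, rose from 92.9 ± 5.86 to 161 ± 9.15 CPM (adjusted p 7.28e-07) and is named after its values were seen. The share of cells in S phase was not measured in these files, and the part of S-phase genes in the lower histone counts was not tested.

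**Figure D4:**
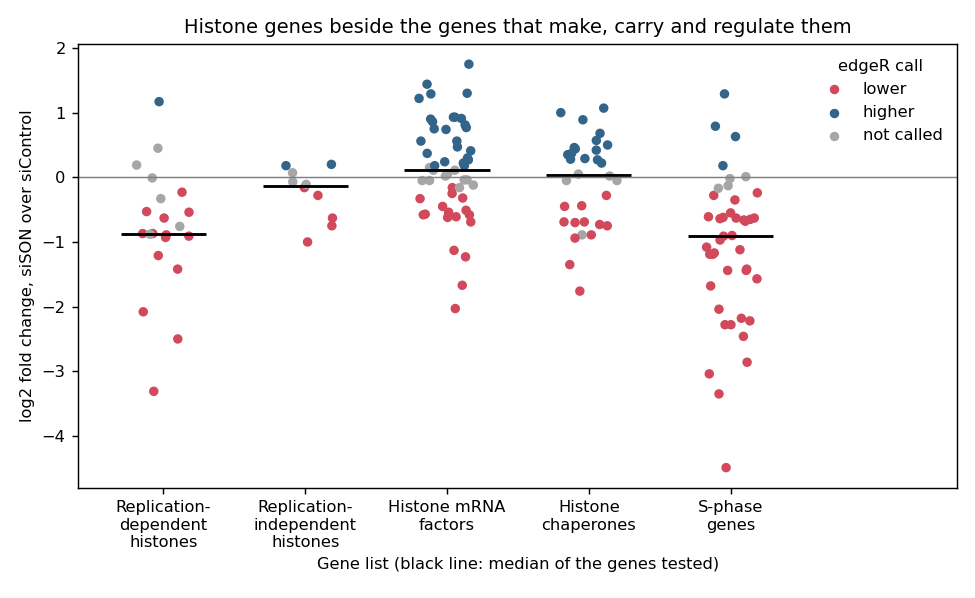
Log2 fold change, siSON over siControl (TMM scaling), of every tested gene in 5 lists, coloured by its edgeR call, with the median of each list as a black line. Medians were -0.87 for the replication-dependent histone genes, -0.13 for replication-independent histone genes, 0.11 for histone mRNA factors, 0.04 for chaperones and -0.91 for S-phase genes.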

How the data were processed

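The deposited table held unnormalized counts, whole numbers for every gene and library. The submitters' processing notes name cutadapt 1.16, STAR 2.5.2a, featureCounts 1.6.2, DESeq2 1.28.1 and hg38, with no settings. Annotation release, strand setting and handling of multi-mapping reads are not given in the sources used here. All 58735 identifiers matched GENCODE 29 (GRCh38), as did 99.51% of names, so positions, exons and transcript sequences came from that release. Counts were tested in R 4.3.3 with edgeR 4.0.16 (filterByExpr with a minimum count of 10, TMM, robust quasi-likelihood, group alone), with Benjamini-Hochberg adjustment over all 16591 genes tested and a threshold of 0.05; all adjusted p-values are from this test unless another setting is named. SE is the absolute log2 fold change over the square root of F. The fit was checked on generated counts with a common dispersion and known changes in few genes. That check does not cover the choice of scaling when most genes differ. CPM used TMM-scaled library totals. Alternatives were DESeq2 1.42.0, limma-voom and cyclic loess with limma 3.58.1, relative log expression (RLE) factors, library size alone, other filters, the replicate block and omission of each library.

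The members and gene lists were chosen with earlier results of these data known. Genes named are SON, SLBP and NPAT; in each class the 4 members with the highest mean CPM and the called members with the largest rise and fall; every tested member with introns; and the 4 smallest adjusted p-values of each other list. Stem-loops were sought as the 16-base consensus after the stop codon. One marker gene is not reported here.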

Additional observations from a re-analysis of the deposited data

How the results depend on the processing

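The number of histone genes called (15) was 12 to 17 over 15 alternatives, with 13 to 15 when single replicates were left out in turn. The number called lower (14) was 10 under cyclic loess and 12 to 16 elsewhere. The number called higher (1) was 0 with library size alone or a mean count of at least 50, 2 under cyclic loess or with no filter, and 0 to 2 across the fits that left out 1 replicate. The median log2 fold change (-0.87) was -0.48 under cyclic loess and -0.70 to -0.91 across the fits that left out 1 replicate; the cause was not tested. With a mean count of at least 50 only 14 histone genes were tested, 13 of them called lower. HIST2H2BE, HIST3H2A, HIST1H1C, HIST1H2BC, HIST1H2BD, HIST1H2BJ, HIST1H2AG and HIST1H3H kept their call in all 15 alternatives, and HIST1H2BE in the 14 that tested it.

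Replicate numbers are shared by both groups, but what they stand for is not stated. Deviations from group means correlated at 0.194, 0.0461 and 0.118 for replicates 1, 2 and 3, each library most with its own number, so the pairing is a hint from the data only. With the replicate block, 15 histone genes (14 lower), 12313 genes in all and SON at -2.14 were seen. Within the block HIST1H4H was not called (adjusted p 0.0614) and HIST1H3E was (adjusted p 0.0346). Depth limits the 26 genes with at most 18 counts in a library: of them, HIST1H4K was called higher in 4 alternatives, HIST3H2BB lower in 3 and HIST2H4A lower with no filter. In the fits that left out libraries, HIST1H4K passed the count filter through siSON alone and HIST3H2BB through siControl alone. Both therefore had to differ between groups there. HIST2H4A had 6, 2 and 7 counts in siControl and 0 in each siSON library.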

Other observations

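Of 18 histone pseudogenes in the named clusters, 14 were at 0 in every library and 1 passed the count filter. That gene, HIST2H2BD, had 374, 424 and 495 counts in siControl and 102, 78 and 69 in siSON. HIST2H2BD fell by 2.01 on the log2 scale (SE 0.16, edgeR adjusted p 5.35e-07). It was named after its values were seen. H1F0, the gene of the replacement linker histone H1.0, had 0, 1 and 0 counts in siControl and 1, 0 and 0 in siSON.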
